A study of Mus musculus with 6 samples.

Results

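The 113 ribosomal protein pseudogenes described here are rows of a single-cell expression table, selected on their symbol, which starts with Rpl or Rps and ends in -ps with or without a number, and on a measured value above 0 in more than 5 retained cells. They were 113 of 296 symbols of that form, 113 of the 11264 genes that passed the same limit, and 113 of the 25215 rows of the table. Of the other 183 symbols of that form, 128 were at 0 in all retained cells and 55 were above 0 in 1 to 5 of them. Because the members were chosen for being detected, the number of cells in which they were detected is given as a description. The members just inside the limit were Rpl21-ps6 and Rpl21-ps12, each above 0 in 7 retained cells, and Rpl30-ps1, in 8. Just outside it, Rpl31-ps12, Rpl17-ps4 and Rps12-ps11 were each above 0 in 5.

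The cells came from subcutaneous mouse melanomas of 3 groups with 2 tumors each, and all mice were C57BL/6. The B16 group carried the B16-F10 melanoma line and received no antibody. The B16PD1 group carried the same line and received 200 μg of anti-PD1, an antibody against an inhibitory receptor of T cells, on days 5, 8 and 11. The R499 group carried the Res499 line, which was derived from a B16 tumor that had relapsed after radiation and an antibody against CTLA4, and received no antibody. Each injection held 50000 tumor cells, and tumors were harvested on day 15 and sorted for cells without the immune marker CD45. R499 therefore stands for 1 selected line, and its contrast with B16 compares 2 lines. Full-length transcripts were sequenced with a Smart-seq protocol on the ICELL8 platform, and expression was given as TPM, a length-corrected level whose sum is fixed within a cell. Read depth is unknown here, and the count of genes above 0 in a cell stands in for it.

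The table held 602 cells, and 507 of them were retained because over 1000 genes were detected and mitochondrial transcripts stayed below 10% of TPM. A tumor kept 75 to 91 cells, and its median was 3141 to 3838.5 genes per cell. The 7 melanocyte markers were above 0 in 65.1% to 100% of retained cells. The 9 myeloid markers reached at most 5.52% of cells, the B cell marker Cd79a 5.13%, with Ms4a1 at 0, and T cell, fibroblast and endothelial markers at most 1.38%. All 4 keratinocyte markers were at 0. No 2 cells were identical, and no well was shared between tumors.

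Ribosomal proteins are the protein components of the large (Rpl) and small (Rps) ribosomal subunits, and their genes are among the most strongly transcribed in dividing cells. Their spliced messenger RNAs are copied back into DNA by the reverse transcriptase of LINE elements, and the inserted copies, called processed pseudogenes, lack the introns and the promoter of the parent gene. Mammalian genomes hold many such copies, young ones nearly identical to the parent and old ones diverged from it. A short read from a near-identical copy can be placed in the parent or in the copy, and RSEM divides such reads between them by an estimate. The values of a member and of its parent gene, here the symbol without the -ps ending, are therefore uncertain where the sequences are shared, and transcription of the copy and of the parent cannot be told apart there.

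In the GENCODE annotation of GRCm38, the assembly that is also called mm10, 104 of the 113 members were processed pseudogenes, 5 were transcribed processed pseudogenes and 4 were annotated as protein-coding (Rpl10-ps3, Rpl9-ps6, Rps12-ps3 and Rpl36a-ps1, named for this annotation). The large subunit had 68 members and the small subunit 45, and together they had 48 parent genes. A single transcript with 1 exon was annotated for 109, and they lay on 20 chromosomes, only 2 of them on the chromosome of the parent. Inside or over a protein-coding gene lay 40, of which 37 were in an intron and 12 on the strand of that gene. The member transcripts were 213 to 1214 bases long with a median of 495. Their identity to the parent transcript in a local alignment was 87.5% to 100% with a median of 99.0%, and 12 held the whole coding sequence of the parent without a difference. An open reading frame at least as long as that of the parent was present in 60.

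Identical and near-identical copies are shown by 4 members, each with the same stretch of the coding sequence of its parent, 5′ to 3′ on the strand of the gene, from the GENCODE transcripts. Capitals mark every base that differs between a member and the parent, or that the member lacks. Rps23-ps1, the second most abundant member, lies at chr3:37714740-37715164 on the plus strand, and its parent Rps23, a protein near the decoding center of the small subunit, lies at chr13:90922958-90924950. The 425 bases of the member were identical to the parent, and its annotated transcript lacked the last 7 bases of the coding sequence, of which positions 240 to 432 are shown.
Rps23: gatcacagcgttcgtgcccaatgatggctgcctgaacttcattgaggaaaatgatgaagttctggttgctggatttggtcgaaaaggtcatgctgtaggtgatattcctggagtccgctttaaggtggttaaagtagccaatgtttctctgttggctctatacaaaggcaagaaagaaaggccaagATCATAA
Rps23-ps1: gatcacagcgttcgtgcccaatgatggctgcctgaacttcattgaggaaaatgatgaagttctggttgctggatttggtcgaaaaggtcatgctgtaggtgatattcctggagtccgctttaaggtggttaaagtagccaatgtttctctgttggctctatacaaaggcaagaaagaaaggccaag

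Rpl31-ps8 (chr15:90764279-90764656, minus strand) was identical to all 378 bases of the coding sequence of Rpl31 (chr1:39367842-39371911), a protein at the exit of the peptide tunnel of the large subunit. Rpl31-ps9 (chr1:129801387-129801764, minus strand) differed from it at 2 positions, C237T and C363T, where the base of the parent stands first and positions are counted from 1 at the start of the parent coding sequence. Positions 200 to 378 are shown. It lies in an intron of Thsd7b, on the opposite strand.
Rpl31: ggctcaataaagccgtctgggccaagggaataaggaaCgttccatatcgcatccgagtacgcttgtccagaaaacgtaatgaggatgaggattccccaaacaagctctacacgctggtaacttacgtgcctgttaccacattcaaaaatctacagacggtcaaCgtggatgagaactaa
Rpl31-ps8: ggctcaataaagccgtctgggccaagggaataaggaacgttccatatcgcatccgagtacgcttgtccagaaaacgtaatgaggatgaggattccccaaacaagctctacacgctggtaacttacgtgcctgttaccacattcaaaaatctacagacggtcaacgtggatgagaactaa
Rpl31-ps9: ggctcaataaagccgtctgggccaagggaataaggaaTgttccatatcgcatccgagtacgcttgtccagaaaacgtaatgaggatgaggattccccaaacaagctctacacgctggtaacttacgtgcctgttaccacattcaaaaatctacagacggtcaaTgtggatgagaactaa

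Rps18-ps1 (chr4:71370738-71371196, minus strand) was less like its parent, with an identity of 98.3%, although other members were less like theirs. It had 8 substitutions (G41A, C70T, G113A, A205C, G224A, A337T, C352A and C414T) against Rps18 (chr17:33951999-33956001), a protein of the head of the small subunit, and its longest run without a difference was 112 bases. Positions 130 to 420, with 5 of the substitutions, are shown.
Rps18: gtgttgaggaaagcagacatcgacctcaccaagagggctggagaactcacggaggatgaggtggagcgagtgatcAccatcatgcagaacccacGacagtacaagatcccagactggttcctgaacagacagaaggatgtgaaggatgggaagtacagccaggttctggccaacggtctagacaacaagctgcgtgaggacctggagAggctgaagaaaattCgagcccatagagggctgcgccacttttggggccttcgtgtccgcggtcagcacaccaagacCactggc
Rps18-ps1: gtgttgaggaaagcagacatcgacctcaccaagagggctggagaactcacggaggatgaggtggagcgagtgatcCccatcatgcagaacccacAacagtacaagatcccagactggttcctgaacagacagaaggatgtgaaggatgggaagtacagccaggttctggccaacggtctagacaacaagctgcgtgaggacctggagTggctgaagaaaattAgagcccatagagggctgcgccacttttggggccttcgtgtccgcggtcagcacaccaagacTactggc

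The share of a transcript that can be told from the parent was measured by cutting each member into all its overlapping windows of 50 bases and looking for each window, letter for letter, in the transcripts of the parent. The share found there was 100% for Rps23-ps1 and Rpl31-ps8, 79.9% for Rpl31-ps9 and 28.5% for Rps18-ps1. Over the 113 members it ran from 0% to 100% with a median of 60.1%. No window of its own, absent from every other annotated gene, was left in 24 members with windows of 50 bases and in 23 with windows of 75. In 37 members another gene held more windows than the parent did.

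The members with the most shared sequence were the most abundant. The 13 members with every 50-base window in the parent held 63.6% of the TPM of all members, with a median of 590 for their mean TPM over the 507 cells (25.8 to 2577). The median was 103 for the 27 members with at least 75% but not all windows shared, 21.6 for the 37 members with 50% to 75%, and 4.59 for the 36 members under 50%. Over the 113 members the mean TPM and the share of windows had a Spearman rho of 0.83, and the mean TPM and that of the parent had a rho of -0.17. These are correlations across members, which share parents and sequence and are not replicates. Members with a full-length open frame had a median of 65.7 and the others of 10.7. The median was 23.2 for members in introns and 23.9 for those outside protein-coding genes.

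**Figure D1:**
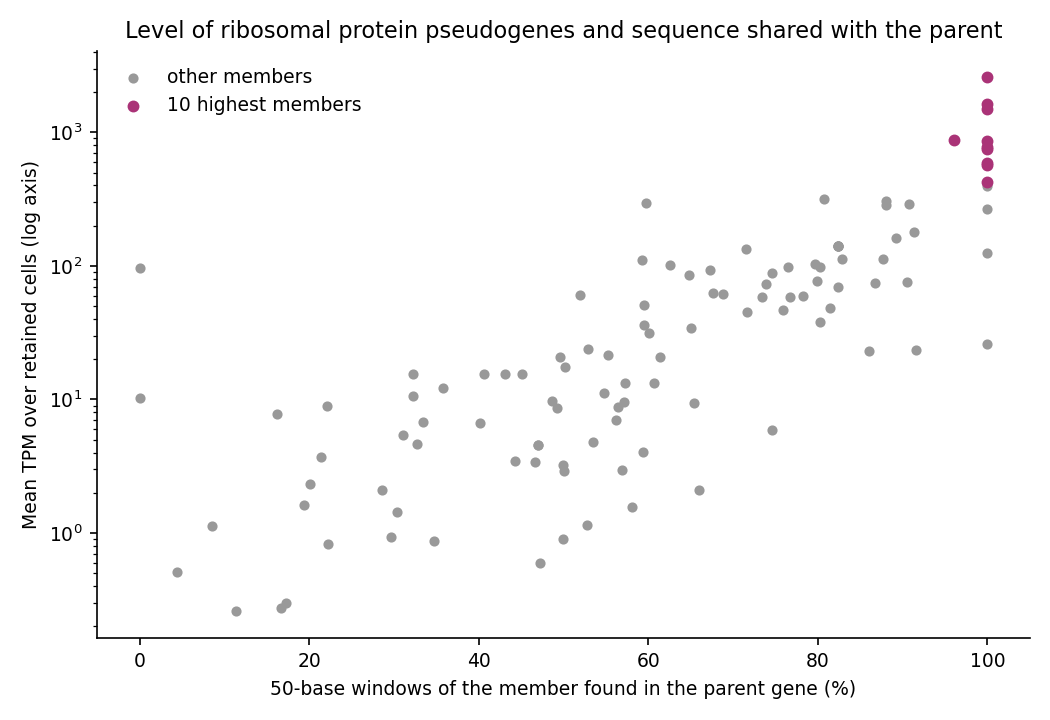
Mean TPM of each of the 113 members over 507 retained cells (log axis) against the share of its 50-base windows found in a transcript of the parent gene (percent), 1 point per member, with the 10 highest members in purple. The 13 members at 100% reach from 25.8 to 2577, and the 2 members at 0% lie at 95.7 (Rpl36a-ps3) and 10.3 (Rpl18-ps1).

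Rpl36a-ps3 had no window in Rpl36a, with an identity of 87.5%, and 81.6% of its windows were in Rpl36al, a gene for a near-identical protein. Its mean TPM was 95.7, and it was above 0 in 42 cells. It was named after its values were seen, and the gene that its symbol points to was not the one with the most shared windows.

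Some members could not be told apart from each other. Rpl35a-ps2, Rpl35a-ps3, Rpl35a-ps4 and Rpl35a-ps6 had the same transcript of 333 bases at 4 places in the genome, 1 substitution away from Rpl35a, and the same TPM in every cell, above 0 in 249 retained cells. Rps19-ps1 and Rps19-ps2 likewise had 1 transcript and 1 set of values, above 0 in 37 cells. Equal values also occurred between copies that differ. All 42 retained cells with Rpl31-ps9 also had Rpl31-ps8, and in 34 of them both had exactly the same TPM. For Rpl30-ps8 and Rpl30-ps9 this was so in 41 of the 47 cells with both, and for Rpl10-ps5 and Rpl10-ps6 in 6 of 6.

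Together the members held a median of 1.54% of the TPM of a retained cell, with a range of 0.566% to 6.83%. Their parent genes held 9.68%, the 79 cytosolic ribosomal protein genes 15.6%, and the 120 other genes whose symbol ends in -ps 0.458%. A cell had 4 to 78 members above 0, with a median of 21, and no retained cell was without one. The 10 most abundant members held 63.9% of the members' TPM. Only 15 members were above 0 in over 50% of the retained cells, and 56 were above 0 in under 10% of them.

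Rpl27-ps3 was the most abundant member, and its parent Rpl27 encodes a protein of the large subunit. For B16 its mean TPM was 2578 in one tumor and 2501 in the other, for B16PD1 it was 2848 and 2764, and for R499 it was 2233 and 2506. On this scale the B16PD1 tumors were the highest and R499 overlapped B16. As a mean of log2(TPM + 1), the scale of the fits, the B16 tumors were at 11.03 and 10.01, and those of B16PD1 at 10.59 and 10.66, so that a B16 tumor was the highest of the 6. It was above 0 in 470 of 507 cells, against 412 for Rpl27, whose mean TPM was 623. It was the only member detected in more cells than its parent, and one of 3 members with a higher mean TPM than the parent, the others being Rps23-ps1 and Rpl36a-ps2.

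The mean TPM of Rps23-ps1 was 1609 and 1329 for B16, against 1911 and 1988 for B16PD1 and 1372 and 1531 for R499. Both B16PD1 tumors were above the other 4. Over all cells its mean TPM was 1629 against 585 for Rps23, and it was above 0 in 425 cells.

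Rpl31-ps8 had a mean TPM of 1336 and 1372 for B16, of 1487 and 1718 for B16PD1, and of 1446 and 1671 for R499, so that both B16 tumors were the lowest on this scale. As a mean of log2(TPM + 1) the B16 tumors were at 7.84 and 6.9997 and overlapped those of R499 at 7.93 and 7.17. Its overall mean of 1501 lay close to the 1509 of Rpl31. Rpl10-ps3 is the copy of Rpl10, a protein that joins the large subunit late in its assembly. Its mean TPM was 825 and 857 for B16, 815 and 1027 for B16PD1, and 820 and 920 for R499, and the groups overlapped on this scale. As a mean of log2(TPM + 1) both R499 tumors, at 7.12, were below the other 4, the lowest of which was at 7.24.

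Rpl38-ps2, a copy of the gene for a large subunit protein and the shortest member at 213 bases, had a mean TPM of 1353 and 777 for B16, 557 and 1151 for B16PD1, and 706 and 498 for R499. Both R499 tumors were below both B16 tumors, and those of B16PD1 overlapped both groups. It was above 0 in only 133 cells, in which its median was 2013. The other members of the top 10 were Rps13-ps2 (mean TPM 781), Rpl15-ps3 (744), Rps16-ps2 (590), Rps6-ps4 (570), whose parent is the target of the S6 kinases, and Rpl36a-ps2 (427, above 0 in 193 cells). TPM is a level per length of transcript, and these members are shorter than the parent transcripts, for example 411 against 614 bases for Rpl27-ps3.

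In 4 of the 48 families of a parent and its members, the members held more TPM than the parent. Their part was 80.7% of the family for Rpl27, 74.4% for Rps23, 60.6% for Rpl36a and 51.5% for Rpl31. The median over families was 6.23%.

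Over all retained cells, the correlation of a member with its parent was centered near 0. Pearson's r of log2(TPM + 1) over the 507 cells had a median of 0.0097 over the 113 pairs, with a range of -0.34 to 0.19, and 56 pairs were negative. In cells with the member above 0, the median was -0.26, over the members with at least 20 such cells. No such value was computed with the other parent genes. For each member the median of its r with the other 47 parent genes was also taken. Over the members these medians ran from -0.12 to 0.21 with a median of 0.047, and 12 were negative. A median of 47 values varies less than a single r, so the counts of 12 and 56 cannot be compared. The cells share tumors and depth and are not replicates, so no test was made of these values. The 3 lowest were Rpl10-ps5 (-0.34), Rpl10-ps6 (-0.31) and Rpl17-ps9 (-0.26), and the 3 highest Rpl17-ps8 (0.19), Rps12-ps3 (0.16) and Rpl30-ps10 (0.15). Rpl17 is a large subunit protein at the peptide exit, Rps12 a small subunit protein and Rpl30 a large subunit protein.

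In many cells only one of a pair was above 0. Rpl27-ps3 and Rpl27 were both above 0 in 384 cells, only the member in 86, only the parent in 28 and neither in 9. Where both were above 0, the member held a median of 84.5% of the pair. Rps23-ps1 and Rps23 were both above 0 in 378 cells, only the member in 47, only the parent in 65 and neither in 17, and the member held a median of 76.3%. Rpsa-ps10, a copy of the small subunit protein and laminin receptor Rpsa, was above 0 in 284 cells, all of them with Rpsa, and held a median of 4.55%.

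**Figure D2:**
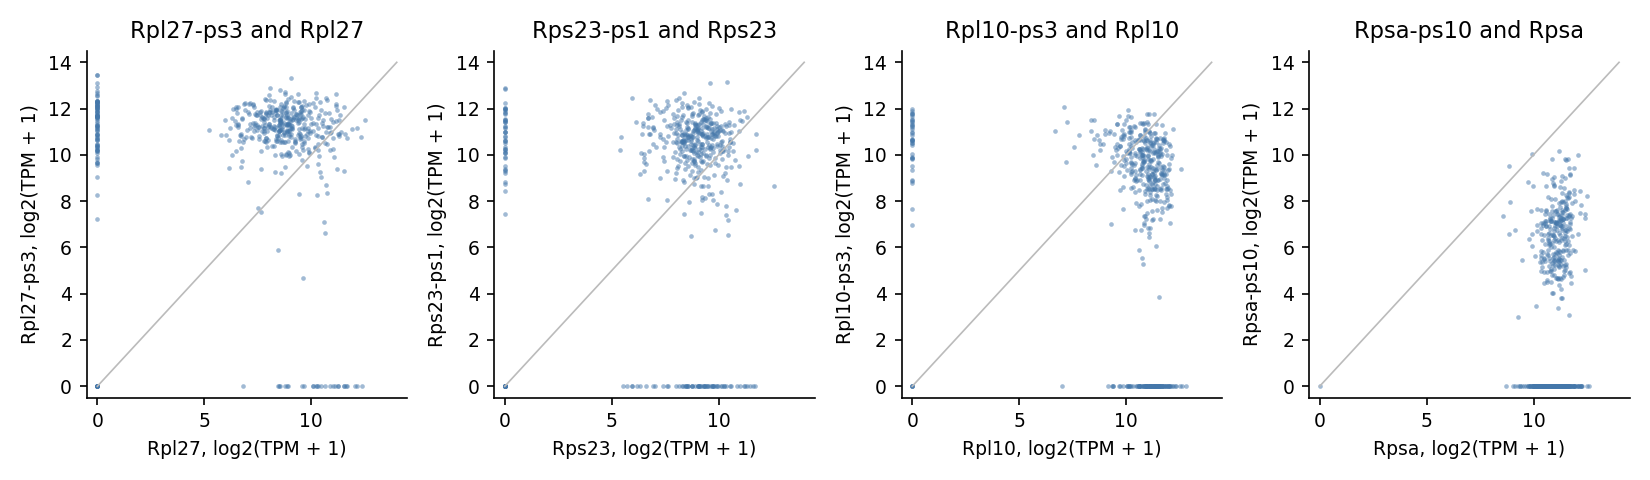
Member against parent gene, both as log2(TPM + 1), in 507 retained cells for 4 pairs, 1 point per cell, with the line of equal values in gray. For Rpl27-ps3 437 cells lie above the line and for Rps23-ps1 377, against 123 for Rpl10-ps3 and 2 for Rpsa-ps10, and points on the axes are cells with one of the pair at 0.

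Rpl10 was at 0 in 42 retained cells, and all 42 had one of its 4 members above 0. Among the 465 cells with Rpl10 above 0, 78.1% had a member. The members' summed TPM had a median of 1968 in the 42 cells and of 634 in the others. Across cells the SD of log2(TPM + 1) was 3.12 for Rpl10 and 0.67 for Rpl10 summed with its members before the log. The cells without Rpl10 were in all tumors: 3 and 14 for B16, 3 and 6 for B16PD1, and 8 and 8 for R499. They had a median of 2052 genes above 0, against 3745 in the others.

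Other families differed widely. Rpl3 was at 0 in 8 cells and Rps18 in 3, and all of these had a member. A member was above 0 in 16 of 20 cells without Rpl23a, or 80.0%, against 44.1% of the cells with it. For Rpl27 the shares were 92.6%, or 88 of 95 cells, and 93.7%. It was above 0 in 0 of 24 cells without Rps15, 0 of 15 without Rpl29, 2 of 38 without Rps24 and 3 of 39 without Rps15a. In cells with the parent the shares for these families were 6.42%, 2.85%, 16.6% and 27.4%. Over the 23 parent genes at 0 in at least 20 cells, a member was more frequent in the cells without the parent in 8 families and less frequent in 15. Over all families there were 1449 combinations of a cell and a parent gene at 0, and in 700, or 48.3%, a member was above 0. These families were named after their values were seen.

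**Figure D3:**
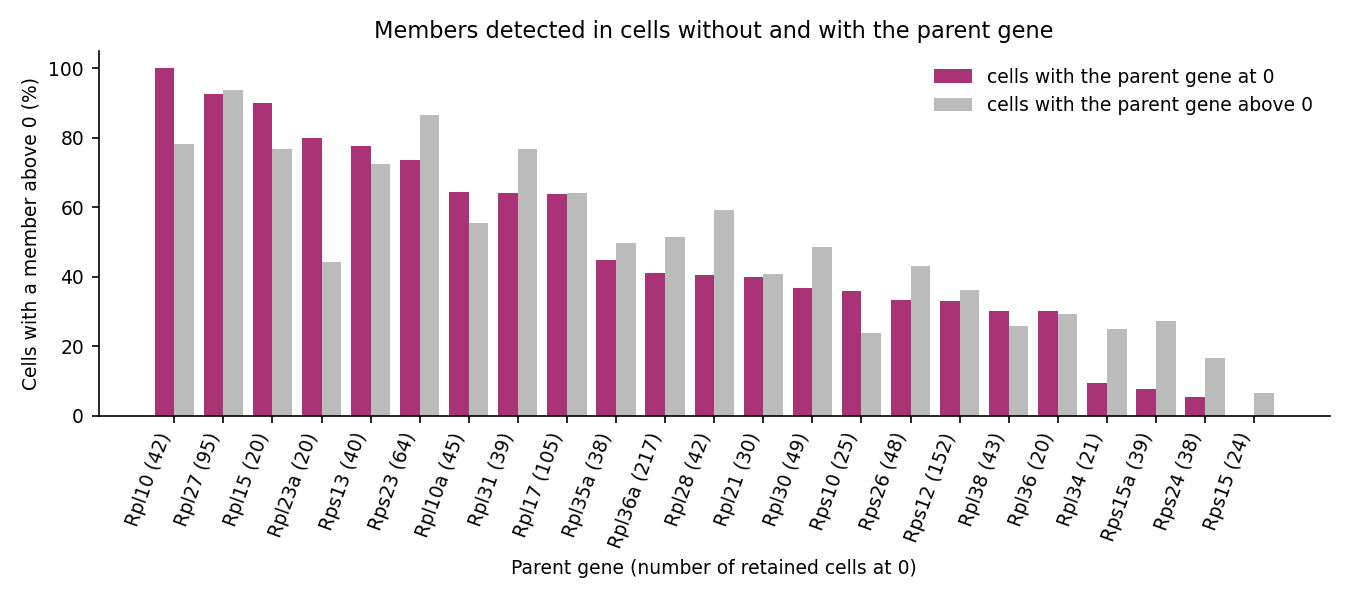
Percent of cells with at least 1 member above 0, among cells with the parent gene at 0 (purple bars) and among the other retained cells (gray bars), for the 23 parent genes at 0 in at least 20 cells, whose number stands in brackets. The purple bars run from 100% for Rpl10 down to 0% for Rps15, and the purple bar is the higher one in 8 families.

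The members held a larger share of TPM in cells with fewer genes detected. The Pearson r between the members' share and the number of genes above 0 was -0.36 over the 507 cells, and within single tumors it ran from -0.51 to -0.25. For the 79 ribosomal protein genes the r was -0.025. Cells with 1007 to 2625 genes (127 cells) gave the members a mean of 1.97%, those with 2634 to 3529 genes 1.68%, those with 3547 to 4620 genes 1.56%, and those with 4625 to 6816 genes 1.39%. The ribosomal protein genes held 16.01%, 15.6%, 16.1% and 15.7% in the same cells. In each of the 6 tumors the share was higher in the cells with the fewest genes than in those with the most, for example 2.46% against 1.54% in B16PD1002 and 1.91% against 1.47% in R499016.

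The number of members above 0 went the other way, from a mean of 13.8 in the cells with the fewest genes to 34.6 in those with the most. A member that was above 0 had a mean TPM of 1427 in the former and of 401 in the latter. The sum of TPM is fixed within a cell, so the mean over all its detected genes must fall as their number rises. Neither change was set beside the same values for all genes, so whether they are particular to the members is unknown. The 24 cells left out for 1000 genes or fewer had a median share of 2.51%, and one of them, with 266 genes, had 15.1%, nearly all of it from Rpl38-ps2 with 143620 TPM. The 71 cells left out for their mitochondrial share had a median of 1.17%.

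**Figure D4:**
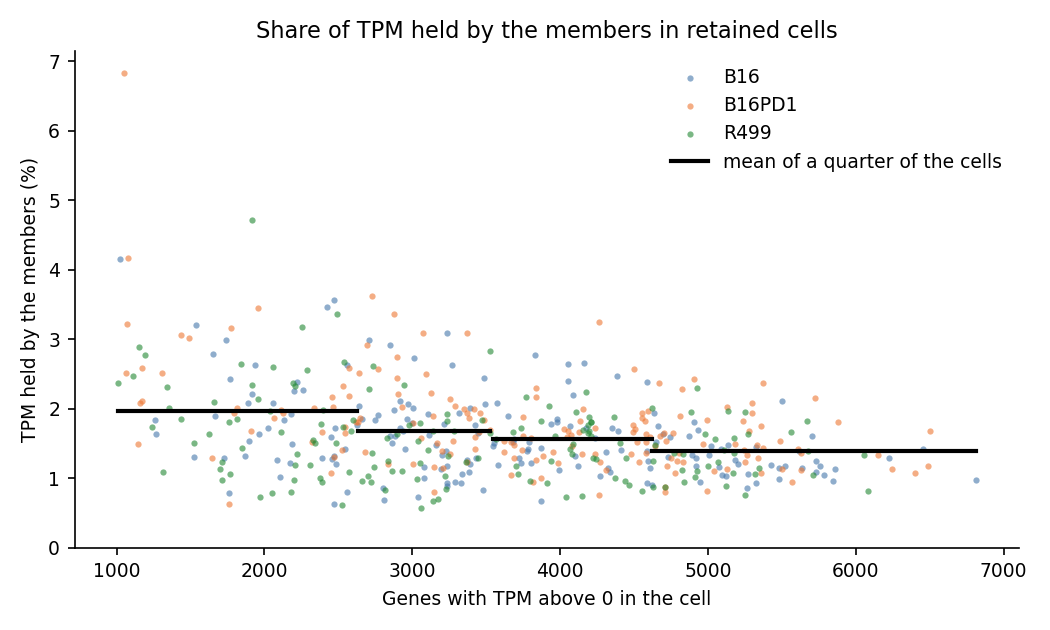
Percent of TPM held by the 113 members in each of the 507 retained cells against the count of genes above 0 in that cell, colored by group, with the mean of each of 4 classes of cells by genes detected as a black line. The 4 lines step down from 1.97% to 1.39%, and the highest cell, a B16PD1 cell with 1052 genes, holds 6.83%.

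For single members the correlation with the number of genes detected was low. The r of log2(TPM + 1) with the number of genes had a median of 0.14 over the 113 members, 0.11 over the 120 other -ps genes, 0.20 over all 11264 genes and 0.24 over the 79 ribosomal protein genes. It was negative for 13 members, or 11.5%, and for 10 of the other -ps genes, or 8.33%. The share was 2.53% for the ribosomal protein genes and 1.55% for all genes. No comparison was made with genes detected in as few cells as the members. In the cells where a member was above 0, the median r was -0.50 over the members with at least 20 such cells. This value was not computed for the other lists or for all genes, so whether it is particular to the members is unknown.

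The 3 highest were Rpsa-ps10 (0.43), Rpl9-ps6 (0.42), a copy of a large subunit protein, and Rps2-ps10 (0.37), a copy of a small subunit protein. Rpsa-ps10 was above 0 in 33 of the 127 cells with the fewest genes and 115 of the 127 with the most. The 3 lowest were Rpl31-ps9 (-0.17), Rpl10-ps6 (-0.17) and Rpl30-ps8 (-0.12), and Rpl10-ps5 had -0.10. Rpl31-ps9 was above 0 in 17 of the cells with the fewest genes and 7 of those with the most, while Rpl31-ps8, which shared 79.9% of its windows, was above 0 in 69 and 118. The mean TPM of Rpl31-ps9 was 205 in the former cells and 4.52 in the latter. For Rpl10-ps6 the number of cells was 10 and 2, and for Rpl30-ps8 22 and 13.

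By condition, the members held 1.63% and 1.59% of TPM for B16, 1.65% and 1.91% for B16PD1, and 1.48% and 1.62% for R499. Both B16PD1 tumors were above the other 4, one of them by little. The means were 1.61% ± 0.029 for B16, 1.78% ± 0.18 for B16PD1 and 1.55% ± 0.098 for R499 (each with SD, n = 2). Without tumor B16PD1002 the excess of B16PD1 over B16 fell from 0.18 to 0.046 percentage points. The ratio of the members to their parents, averaged over cells, was 17.3% ± 0.60 for B16, 17.3% ± 1.7 for B16PD1 and 17.2% ± 0.54 for R499 (each with SD, n = 2), and these differed by less than the spread between tumors. These sums were not tested, and an exact test of 2 tumors against 2 cannot go below p = 0.3333.

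For single genes, the tumor mean of log2(TPM + 1) over retained cells was fitted with limma, with Benjamini-Hochberg adjustment over all 11264 genes. A tumor mean holds both the number of cells with a transcript and its amount per cell. No member passed an adjusted p of 0.05 in B16PD1 minus B16, R499 minus B16 or R499 minus B16PD1. Over all genes 0.0%, 0.0621% and 0.071% passed, or 0, 7 and 8 genes. An unadjusted p under 0.05 was reached by 10, 11 and 13 members, or 8.85%, 9.73% and 11.5%, against 4.69%, 10.5% and 10.2% of all genes. The 10 members in B16PD1 minus B16 were all higher in B16PD1, where 3.02% of all genes were at an unadjusted p under 0.05 and higher. In R499 minus B16, 4 were higher and 7 lower, against 2.42% and 8.12% of all genes, and in R499 minus B16PD1 1 was higher and 12 lower, against 1.56% and 8.64%. The 11 members in R499 minus B16 became 23 with the mean of each cell subtracted and 18 with genes detected as a covariate, where 11.0% and 6.91% of all genes were at an unadjusted p under 0.05. Subtracting the mean of each cell moves the difference of every gene by the same amount, also of genes at 0 in most cells. The count of 23 follows in part from that step and is not a result about the members.

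The tumors of the groups did not overlap for 30 members in B16PD1 minus B16, against 33.3% of all genes. Of these members 23 were higher and 7 lower, or 20.4% and 6.19%, against 17.9% and 15.4% of all genes. In R499 minus B16 there were 37 (41.7% of all genes), 13 higher and 24 lower, or 11.5% and 21.2% of members against 11.6% and 30.1% of all genes. In R499 minus B16PD1 there were 36 (41.5% of all genes), 7 higher and 29 lower, or 6.19% and 25.7% against 10.2% and 31.3%. The median difference of the members was 0.077, 0.0042 and -0.077 on the log2 scale, and that of all genes 0.012, -0.073 and -0.089. The difference was above 0 for 75, 57 and 33 of the members, and for 53.0%, 35.8% and 32.8% of all genes. In R499 minus B16PD1 the count was 69 when the mean of each cell was subtracted, where the median was 0.0583 for the members and 0.0464 for all genes. This subtraction moves the differences of all genes in a contrast by the same amount, so the turn of the members and of all genes was set by it. With genes detected as a covariate the count was 67, with medians of 0.0985 and 0.0058. In R499 minus B16 the count was 80 and 73 in these settings, with medians of 0.107 and 0.118 for the members and 0.030 and -0.0074 for all genes. The contrasts share tumors, and their values are not independent.

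Rps23-ps1 had the smallest p of the members in both contrasts with B16PD1. Its mean log2(TPM + 1) reached 9.71 and 10.13 for B16PD1, against 8.93 and 7.78 for B16 and 8.37 and 8.12 for R499. Both B16PD1 tumors were above the other 4. The difference was 1.57 (SE 0.33) in B16PD1 minus B16, with an adjusted p of 0.989, and -1.67 (SE 0.33) in R499 minus B16PD1, with an adjusted p of 0.0831. It was above 0 in 90.7% and 94.3% of B16PD1 cells, 84.6% and 75.6% of B16 cells, and 80.2% and 76.0% of R499 cells.

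In 5 alternatives Rps23-ps1 passed the threshold in R499 minus B16PD1, with adjusted p of 0.0376 with a pseudocount of 0.1, 0.0229 with genes in over 10% of cells, 0.0237 with the mean of each cell subtracted, 0.0171 without tumor B16007 and 0.0136 without tumor B16008. Without B16007 it also passed in B16PD1 minus B16, with a difference of 2.14 and an adjusted p of 0.0305. Over all 19 alternatives the adjusted p in R499 minus B16PD1 ran from 0.0136 to 0.965. The level of the parent Rps23 was 7.87 and 7.70 for B16, 7.71 and 8.07 for B16PD1, and 7.36 and 8.17 for R499. In this row the groups overlapped. The difference was 0.10 (SE 0.32) in B16PD1 minus B16 and -0.13 (SE 0.32) in R499 minus B16PD1. Rps23-ps1 is identical to Rps23 over its whole transcript, so the division of reads between them is an estimate. A difference in transcription of the copy therefore cannot be told from one of the parent. Rps23 summed with its 2 members was 10.55 and 10.44 for B16, 10.74 and 10.90 for B16PD1, and 9.999 and 10.30 for R499, with differences of 0.32 (SE 0.21, adjusted p = 0.989) and -0.67 (SE 0.21, adjusted p = 0.310).

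In B16PD1 minus B16 the next members were Rpl30-ps9 and Rpl17-ps8. The level of Rpl30-ps9 was 1.97 and 2.49 for B16, 3.28 and 3.70 for B16PD1, and 2.66 and 3.40 for R499, a difference of 1.26 (SE 0.36, adjusted p = 0.989). That of Rpl17-ps8 was 1.82 and 1.34 for B16, 2.76 and 2.53 for B16PD1, and 2.12 and 2.34 for R499, a difference of 1.07 (SE 0.31, adjusted p = 0.989). The tumors of B16 and B16PD1 did not overlap for either.

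In R499 minus B16 the smallest p-values were those of Rps12-ps4, Rpl38-ps2 and Rps18-ps1. Rps12-ps4, which lies over an exon of Nphs1 on the opposite strand, was at 1.20 and 1.17 for B16, 0.92 and 0.96 for B16PD1, and 0.44 and 0.43 for R499. It was above 0 in 12 and 11 cells of the B16 tumors and 4 and 3 of the R499 tumors, and its difference was -0.76 (SE 0.20, adjusted p = 0.218). Rpl38-ps2 was at 3.96 and 3.05 for B16, 2.46 and 3.12 for B16PD1, and 1.97 and 2.25 for R499, a difference of -1.40 (SE 0.37, adjusted p = 0.218). Both R499 tumors were below the other 4 for both genes. Rps18-ps1, the copy with 8 substitutions, was at 0.08 and 0 for B16, 0.13 and 0.12 for B16PD1, and 0.26 and 0.44 for R499, a difference of 0.31 (SE 0.09, adjusted p = 0.254). It rested on 2 cells of tumor B16007, none of B16008, and 4 and 7 cells of the R499 tumors.

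In R499 minus B16PD1, Rpl19-ps1 was also among the members with the smallest p-values. Rpl19-ps1, a copy of a large subunit protein, was at 0.73 and 0.83 for B16PD1, 0.29 and 0.24 for R499, and 0.80 and 0.23 for B16, a difference of -0.51 (SE 0.17, adjusted p = 0.344). Its difference was 0.09 with genes detected as a covariate.

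**Figure D5:**
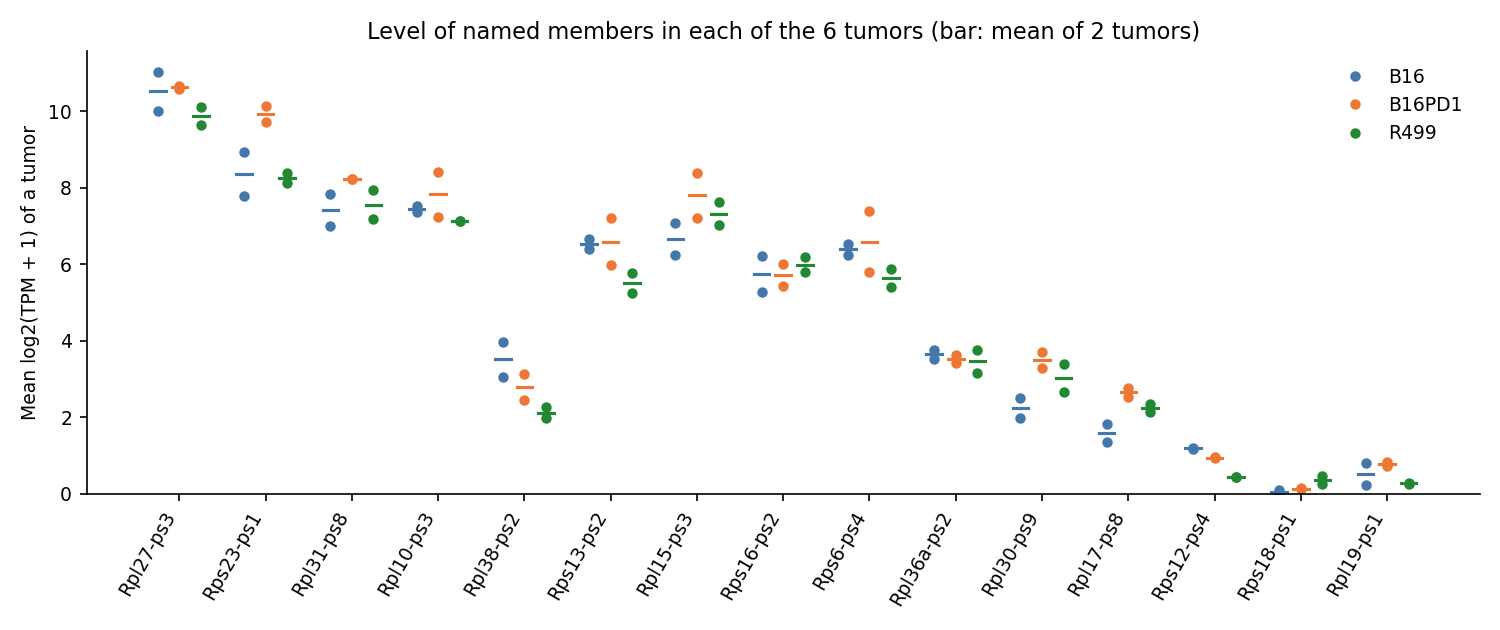
Mean log2(TPM + 1) over retained cells of each tumor for the 10 most abundant members and 5 others among those with the smallest p-values, 1 point per tumor, colored by group, with a bar at the mean of the 2 tumors. For Rps23-ps1 the B16PD1 tumors, at 9.71 and 10.13, lie above the other 4.

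The same fits called 0 of 79 cytosolic ribosomal protein genes in each contrast, of which 48 are parent genes of the members. Of the 48 parent genes, 10 (20.8%) reached an unadjusted p under 0.05 in B16PD1 minus B16. In R499 minus B16 there were 5 (10.4%), and in R499 minus B16PD1 18 (37.5%). The values that follow are for all 79. In B16PD1 minus B16 the difference was above 0 for 74 of the 79, with a median of 0.26, and 14 (17.7%, against 4.69% of all genes) reached an unadjusted p under 0.05, all higher. In R499 minus B16PD1 the median was -0.43, 32 (40.5%, against 10.2% of all genes) reached an unadjusted p under 0.05, all lower. In R499 minus B16 the median was -0.12, with 2 higher and 7 lower, or 11.4% against 10.5% of all genes. Of 24 ribosome biogenesis genes, such as the nucleolar proteins Ncl and Fbl, 0 passed in any contrast, and 2, 3 and 5 (8.33%, 12.5% and 20.8%) had an unadjusted p under 0.05. Of 25 translation factors the counts were 0, and 1, 1 and 4 (4%, 4% and 16%). The 120 other -ps genes had medians of 0.019, -0.025 and -0.045, and 8, 3 and 9 (6.67%, 2.50% and 7.50%) at an unadjusted p under 0.05. All of these lists were chosen with earlier results of these data known. The mean number of genes detected per cell was 3627, 3766 and 3394 in B16, B16PD1 and R499. By tumor it was 3758 and 3496 for B16, 3787 and 3745 for B16PD1, and 3332 and 3456 for R499, so B16 and B16PD1 overlapped. In B16PD1 minus B16 the median difference was 0.26 for the ribosomal protein genes and 0.019 for the other -ps genes. It was 0.018 for the ribosome biogenesis genes and -0.0064 for the translation factors. The part of genes detected in these differences was not tested.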

How the data were processed

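Cells from 6 tumors were analysed. The authors aligned the Smart-seq reads with STAR, quantified them with RSEM (both at default parameters), and deposited TPM per gene and cell; the submitters' notes name mm10. Versions and annotation are not given in the sources used here. RSEM divides reads shared by a pseudogene and its parent, so the split is an estimate.

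Cells with over 1000 genes detected and under 10% mitochondrial TPM, and genes above 0 in over 5 of them, were kept. Tumor means of log2(TPM + 1) entered limma (version 3.58.1, R version 4.3.3, eBayes with trend, two-sided, Benjamini-Hochberg over 11264 genes, threshold 0.05), with all 6 tumors in 1 fit. Fold changes on this scale understate those of low genes, and p-values measure only the spread between tumors. Doublets were not called.

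Sequences came from GENCODE vM21 on GRCm38, which may not be the authors' annotation, and were aligned with Biopython 1.88. Other software was Python 3.11.15 (numpy 2.4.6, pandas 2.3.3), with figures from matplotlib 3.10.9.

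Members and lists were chosen with earlier results of these data known. Named members were the 10 most abundant, the 3 with the smallest p in each contrast, the 3 highest and 3 lowest in correlation with genes detected and with the parent, those at the limit of detection, and 5 known from earlier results (Rpl10-ps5, Rpl10-ps6, Rpl30-ps8, Rpl31-ps9, Rps23-ps1). In a test on simulated data for R499 minus B16, with 11264 genes fitted, 65 of 200 altered genes were found beside 1 unaltered gene, which was 5% of alterations of 1 log2 unit and 60% of alterations of 2. The altered genes were drawn only from genes with a mean log2(TPM + 1) above 1. Many members lay below that level, and these rates do not cover them. Alternatives were other pseudocounts, summaries, filters, scalings and covariates, and the omission of each tumor. Of the named members, 1 is not reported here, nor are some values of single genes.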

Additional observations from a re-analysis of the deposited data

How the results depend on the processing

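No paired analysis was possible because the columns carry tumor numbers and not the replicate numbers of the labels. The groups were also separate mice, and the paper describes no pairing between them. An equal replicate number would therefore not by itself make a pair. Of 167 alternatives for the differences of named members, 160 kept the direction and the side of the threshold and 6 passed it, all for Rps23-ps1, and the difference of Rpl19-ps1 in R499 minus B16PD1 turned to 0.087 with genes detected as a covariate. No member was called in the 3 contrasts, but 1 was in R499 minus B16PD1 with a pseudocount of 0.1, with genes in over 10% of cells and with the mean of each cell subtracted. With a tumor left out, 0 to 1 members were called in B16PD1 minus B16 and in R499 minus B16PD1. Over all genes, the 7 calls in R499 minus B16 and 8 in R499 minus B16PD1 became 11 and 13 with a pseudocount of 0.1, 3 and 3 with 10, 20 and 14 with genes in over 10% of cells, 23 and 20 with all deposited cells, 2 and 3 with cells of 2500 to 4500 genes, and 28 and 22 with the mean of each cell subtracted. They became 0 and 0 with log2 of the mean TPM, with the share of cells above 0, with no filter on genes, with limma without a trend and with the number of genes as a covariate. With cells of over 2000 genes R499 minus B16 had 20 calls. With a tumor left out, the calls were 0 to 2 in B16PD1 minus B16, 0 to 10 in R499 minus B16 and 3 to 8 in R499 minus B16PD1.

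The members' share of TPM, 1.65% as a mean of tumors, was 1.39% without Rpl27-ps3. Its difference, with a tumor left out, ran from 0.0458 to 0.304 percentage points in B16PD1 minus B16, from -0.357 to -0.0986 in R499 minus B16PD1 and, changing sign, from -0.122 to 0.0162 in R499 minus B16. The ratio of members to parents, 17.3%, was 15.6% as a median over cells, 16.27% in cells with over 2000 genes, 14.6% without Rpl27-ps3 and 16.31% with members in over 10% of cells. Its difference in R499 minus B16PD1 was -1.29 percentage points with all deposited cells, and with a tumor left out it ran from -1.15 to 1.24 in B16PD1 minus B16, from -0.549 to 0.295 in R499 minus B16 and from -1.37 to 1.03 in R499 minus B16PD1. The median r of the members with genes detected, 0.14, was -0.50 in cells with the member above 0. That with the parent, 0.0097, was -0.26 in cells with the member above 0, -0.0395 with the mean of each cell subtracted and -0.0294 with genes detected regressed out. The causes of these shifts were not tested.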
